A study of Mus musculus with 6 samples.

Results

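The genes of MHC class II antigen presentation were examined in hematopoietic stem cells (HSCs) from the bone marrow of mice lacking the ribosomal protein Rpl22. They were 9 of the 34573 genes in the count table: the invariant chain Cd74, the chains H2-Aa, H2-Ab1 and H2-Eb1, the peptide-loading genes H2-DMa, H2-DMb1, H2-DMb2 and H2-Oa, and the transactivator Ciita. The genes share a pathway, but the group was chosen by its measured difference between the genotypes in these same libraries, so the values in that comparison are given as a description and without p-values. The RNA came from 3 Rpl22-/- libraries, labelled Rpl22 KO, and 3 Rpl22+/+ libraries, labelled Rpl22 WT, with no other treatment in either genotype. The Rpl22-/- mice carry a germline loss of the gene, so every cell type lacks it, and the methods describe young adult mice of a line backcrossed to C57BL/6. Lineage-negative CD48-CD150+ cells, which the methods also define as positive for Kit and Sca1, were sorted straight into TriReagent, after lineage depletion with antibodies to Gr-1, CD11b, B220, Ter119 and CD3, which remove mature myeloid, B, erythroid and T cells. The labels do not say whether each library came from a separate animal or from a pool, so the p-values below measure only the spread between these libraries, which may be technical.

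MHC class II molecules carry peptides from endosomes to the cell surface, where CD4 T cells read them. An alpha chain (H2-Aa) and a beta chain (H2-Ab1) form the I-A molecule, and H2-Eb1 is the beta chain of I-E, whose alpha chain is encoded by a pseudogene in C57BL/6 mice. Cd74 fills the groove until proteases cut it down in the endosome, the H2-DM heterodimer then exchanges its last fragment for a peptide, and the H2-O heterodimer of H2-Oa and H2-Ob restrains H2-DM. Ciita, the master regulator of these genes, does not bind DNA itself but is recruited by proteins bound to the W, X and Y boxes of their promoters: the RFX complex, CREB and the trimeric factor NF-Y, which reads the CCAAT sequence and its reverse ATTGG. B cells, dendritic cells and macrophages are the best-known class II cells, and class II molecules are also found on hematopoietic stem and progenitor cells.

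Promoter windows reaching from 250 bases before to 50 bases after the start of a RefSeq transcript (GRCm38.p6) were read for 6 of the 9 genes, H2-Aa, H2-Eb1, H2-DMa, H2-DMb1, H2-DMb2 and H2-Oa, and for H2-Ob. The stretches below are shown because class II genes are known to be read through the same boxes, and that of H2-DMa because it holds none of their letters. Capitals mark the letters ACNGATG (X-box letters), TGATTGG (Y-box letters) and TGACGTCA (the CREB palindrome), searched on both strands of the windows; the last 2 were added once the sequences had been read. The stretches run 5' to 3' on the strand of the gene, at chr17:34287844-34287923 (minus strand) for H2-Aa, chr17:34305756-34305835 for H2-Eb1, chr17:34145107-34145186 for H2-DMb2, chr17:34092284-34092363 for H2-Oa, chr17:34238796-34238875 for H2-Ob and chr17:34122732-34122831 for H2-DMa, all but the first on the plus strand.
H2-Aa: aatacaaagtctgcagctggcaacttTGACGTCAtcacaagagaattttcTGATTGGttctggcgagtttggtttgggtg
H2-Eb1: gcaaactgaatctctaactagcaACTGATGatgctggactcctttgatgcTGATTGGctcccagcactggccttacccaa
H2-DMb2: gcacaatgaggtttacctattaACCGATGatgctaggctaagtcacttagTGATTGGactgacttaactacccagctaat
H2-Oa: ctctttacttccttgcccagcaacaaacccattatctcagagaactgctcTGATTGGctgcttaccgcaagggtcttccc
H2-Ob: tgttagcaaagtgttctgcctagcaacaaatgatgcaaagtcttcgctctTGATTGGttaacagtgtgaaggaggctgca
H2-DMa: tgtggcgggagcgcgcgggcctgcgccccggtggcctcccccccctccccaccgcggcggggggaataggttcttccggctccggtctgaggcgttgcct

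The Y-box letters were found in 5 of the 6 genes with a window, against 7.82% of the 32851 windows of all genes. Since these letters were added once the sequences had been read, this comparison is a description and no evidence of enrichment. They began 50 bases before the start in H2-Aa, 61 in H2-Eb1, 63 in H2-DMb1, 92 in H2-DMb2 and 45 in H2-Oa, and 59 in H2-Ob. ACNGATG followed 15 to 45 bases later on the same strand by ATTGG, which lies within the Y-box letters, was found in 3 of the 6, H2-Eb1, H2-DMb1 and H2-DMb2, and in 74 windows of all genes (0.225%). The distance between the first letters of the pair was 29 bases in H2-Eb1 and 30 bases in both H2-DMb genes. Counted singly, ACNGATG was in 5 of the 6 genes and in 9.85% of all windows, and ATTGG in all 6 genes and 37.4%. The CREB palindrome, found here only in H2-Aa, was in 1.79%. H2-DMa had 2 windows. The window of the start shown above had a GC content of 73%, above that of 94.3% of all windows, with 29 CpG dinucleotides against a median of 7, and none of the searched letters. That window also holds the annotated 5' end of Brd2, a gene on the opposite strand (chr17:34112023-34122634), so its base composition belongs to the starts of both genes. The other window of H2-DMa had a GC content of 39% and held ATTGG alone. These matches describe letters in a window and do not show that a factor binds there.

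Between 9321123 and 13385850 reads per library were assigned to genes, so that a level of 1 on the counts-per-million scale (CPM) stood for 9.61 to 13.2 reads. Rpl22 itself was covered by 449, 527 and 546 reads without the intact gene, and by 6890, 7001 and 5031 reads in Rpl22+/+ HSCs, a log2 fold change of -3.75 (SE 0.105, edgeR quasi-likelihood test, adjusted p = 2.97e-12). The genes expected of the sorted cells were present, with Procr at 53.9 ± 3.32 and 56.7 ± 3.90 CPM and Slamf1, which encodes CD150, at 56.1 ± 9.49 and 45.6 ± 4.40 CPM in Rpl22-/- and Rpl22+/+ HSCs (SD, n = 3 each). None of the 10 HSC markers rose and 1, Fgd5, fell, by 0.41 on the log2 scale (adjusted p = 0.0308). In the same fit 780 of 14004 tested genes differed between the genotypes at an adjusted p under 0.05 (5.57%), with 459 (3.28%) higher in Rpl22-/- HSCs and 321 (2.29%) lower.

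All 9 class II genes were tested and all 9 had a higher fitted level in Rpl22-/- than in Rpl22+/+ HSCs, although the sign of H2-DMb2 was lower under 8 of 16 other ways of processing. The median log2 fold change was 0.53, against -0.0068 over all genes tested, of which 48.7% were higher. The summed level of the 9 genes was 220, 284 and 266 CPM in the Rpl22-/- libraries and 184, 139 and 166 CPM in the Rpl22+/+ libraries. Every Rpl22-/- library was above every Rpl22+/+ library in this sum, with means of 257 ± 33.3 and 163 ± 22.7 CPM (SD, n = 3 each). H2-Ab1, H2-Eb1 and H2-DMa passed the threshold in the fit over all genes, 3 of 9 beside a background of 5.57% in either direction and 3.28% higher. H2-Aa joined them in a count of 4 genes whose genotypes did not overlap, beside 13.3% of all tested genes in which the Rpl22-/- libraries all exceeded the Rpl22+/+ libraries. Because the genes were chosen with this contrast known, nothing is read from these counts. The count of 3 depended on single libraries: it was 1 without Rpl22-/- library 3, 2 without Rpl22+/+ library 2 and 4 without Rpl22-/- library 1. Calls over all genes in these refits numbered 127, 259 and 1720. In bulk RNA, a change in the number of cells that express a gene and a change in RNA per cell cannot be told apart.

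**Figure D1:**
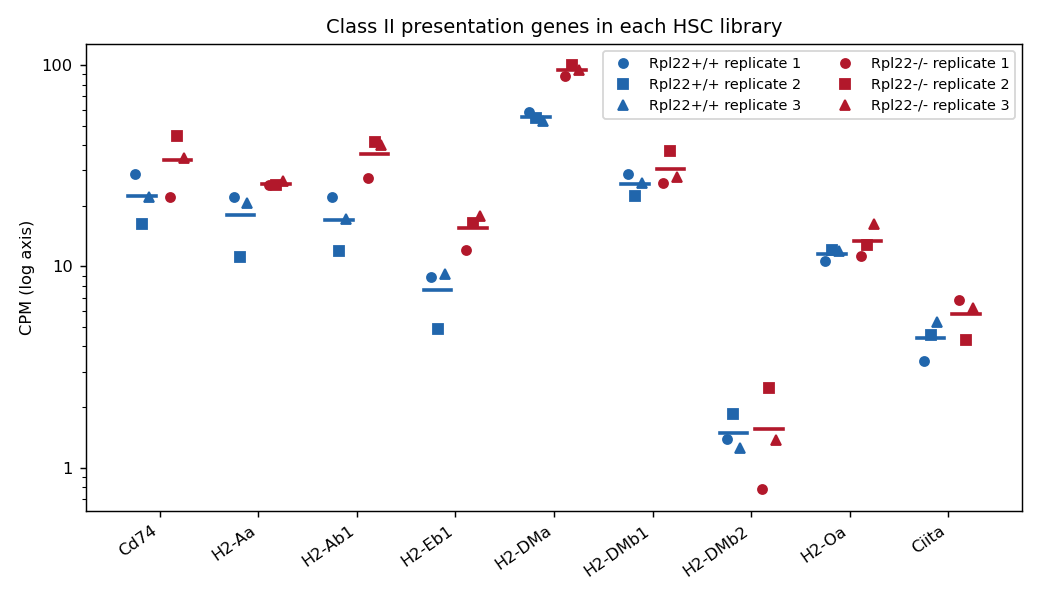
Level of each of the 9 class II genes in CPM for every library, on a log axis, with Rpl22-/- in red and Rpl22+/+ in blue, a symbol for each library and a line at the mean of 3 libraries. H2-DMa stands at 87.8 to 99.8 CPM in Rpl22-/- and 52.7 to 58.2 CPM in Rpl22+/+ HSCs, while the genotypes overlap in Cd74, H2-DMb1, H2-DMb2, H2-Oa and Ciita.

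The beta chains showed larger differences than the alpha chain. H2-Ab1 (chr17:34257689-34269419, plus strand), the beta chain of I-A, was at 27.4, 41.6 and 40.0 CPM in Rpl22-/- HSCs and 22.2, 11.9 and 17.2 CPM in Rpl22+/+ HSCs. No Rpl22-/- library was as low as the highest Rpl22+/+ library, and the log2 fold change was 1.09 (SE 0.197). H2-Eb1 (chr17:34305867-34316674, plus strand), the beta chain of I-E, was at 12.1, 16.5 and 17.8 CPM against 8.83, 4.90 and 9.16 CPM, again without overlap, with a log2 fold change of 1.03 (SE 0.221). The pseudogene of its partner, H2-Ea-ps, had 0 reads in all 6 libraries, which allows up to 3 reads or 0.228 to 0.312 CPM per library, counting error only. H2-Aa (chr17:34282744-34287823, minus strand), the alpha chain of I-A, was nearly level in Rpl22-/- HSCs at 25.3, 25.3 and 26.7 CPM. In Rpl22+/+ HSCs it was at 22.1, 11.1 and 20.7 CPM, so that the groups did not overlap but 2 of the 3 Rpl22+/+ libraries came close, and the log2 fold change was 0.53 (SE 0.191). Without Rpl22+/+ library 2, which was the lowest of its genotype for all 3 chains, the log2 fold changes were 0.87 for H2-Ab1, 0.78 for H2-Eb1 and 0.27 for H2-Aa.

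Cd74, the invariant chain, lies on chromosome 18 (60803848 to 60812652, plus strand) and so outside the class II region. Its levels were 22.2, 44.2 and 34.7 CPM in Rpl22-/- and 28.7, 16.2 and 22.1 CPM in Rpl22+/+ HSCs. Rpl22-/- library 1 fell among the Rpl22+/+ libraries, and the log2 fold change of 0.59 (SE 0.218) ranged from 0.35 without Rpl22-/- library 2 to 0.82 without Rpl22-/- library 1.

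The genes of peptide loading differed among themselves. H2-DMa (chr17:34119541-34139101, plus strand), the alpha chain of H2-DM, was at 87.8, 99.8 and 95.0 CPM in Rpl22-/- and 58.2, 54.3 and 52.7 CPM in Rpl22+/+ HSCs. Its means were 94.2 ± 6.06 and 55.0 ± 2.87 CPM (SD, n = 3 each), with a log2 fold change of 0.77 (SE 0.0886, the smallest of the group) that stayed between 0.71 and 0.83 under the 16 alternatives. Its annotated span overlaps Brd2, which is read from the opposite strand and had 23616 reads over all libraries, and whether the counting used strand is not given in the sources used here. Brd2 was itself at 351 ± 32.1 and 293 ± 7.91 CPM, a log2 fold change of 0.26 (SE 0.0898, adjusted p = 0.0961), so it did not pass the test. H2-DMb1 (chr17:34153072-34160230, plus strand), the beta chain, was at 26.0, 37.4 and 27.7 CPM against 28.7, 22.2 and 26.0 CPM. Its genotypes overlapped, and without Rpl22-/- library 2 its log2 fold change of 0.24 (SE 0.148) was 0.067. H2-DMb2 (chr17:34143307-34151555, plus strand), the other beta-chain gene, had between 10 and 30 reads per library, at 0.78, 2.50 and 1.37 CPM against 1.38, 1.85 and 1.25 CPM. With so few reads its log2 fold change of 0.033 (SE 0.437) could not show a difference of the size seen in H2-DMa. The transcripts of these beta-chain genes are 95.4% identical over 848 aligned bases, so reads could be split between them and both values are uncertain. H2-Oa (chr17:34092340-34095234, plus strand), the alpha chain of H2-O, was at 11.2, 12.7 and 16.3 CPM against 10.6, 12.0 and 12.0 CPM, overlapping, with a log2 fold change of 0.22 (SE 0.168).

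Ciita (chr16:10480059-10528418, plus strand) was the regulator of the group and was covered by 44 to 87 reads per library. Its level was 6.78, 4.33 and 6.23 CPM in Rpl22-/- HSCs and 3.38, 4.57 and 5.31 CPM in Rpl22+/+ HSCs. The genotypes overlapped, since Rpl22-/- library 2 was below 2 of the 3 Rpl22+/+ libraries, and the log2 fold change was 0.40 (SE 0.254). Its span overlaps Dexi on the opposite strand, which had 940 reads over all libraries.

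Per kilobase of annotated exon in Rpl22+/+ HSCs, H2-DMa, H2-DMb1 and Cd74 were the most abundant of the class II messages, at 16.0, 15.3 and 13.3 CPM per kilobase. These levels were at the percentiles 73.2, 71.6 and 66.9 of the 13363 tested genes with a known length. H2-Oa at 8.20, H2-Ab1 at 6.65, H2-Aa at 4.72 and H2-Eb1 at 3.92 CPM per kilobase came next. H2-DMb2 at 0.854 and Ciita at 0.464 CPM per kilobase were the lowest, Ciita at the percentile 5.81. Annotated exon length includes every transcript form, so a gene with long forms that these cells do not use is placed too low in this order.

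The ratio of reads between genes of the group was compared within each library. Such ratios do not depend on library size, and the pairs were chosen with the fold changes known, so they restate those values and are no separate evidence. The reads of H2-Ab1 divided by those of H2-Aa were 1.08, 1.64 and 1.50 in Rpl22-/- and 1.01, 1.07 and 0.829 in Rpl22+/+ libraries. The difference between the lowest Rpl22-/- and the highest Rpl22+/+ value was small here. H2-Ab1 over Cd74 was 1.23, 0.942 and 1.15 against 0.775, 0.733 and 0.778, which left a wider gap. H2-DMa over H2-DMb1 was 3.37, 2.67 and 3.42 against 2.03, 2.44 and 2.02. H2-DMa over H2-Oa was 7.82, 7.84 and 5.84 against 5.49, 4.51 and 4.40. In each of these 4 ratios, and in H2-Eb1 over H2-Aa, the genotypes did not overlap. H2-Oa over H2-Ob, the chains of H2-O, was 0.386, 0.573 and 0.781 against 0.504, 0.439 and 0.441, with overlap.

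**Figure D2:**
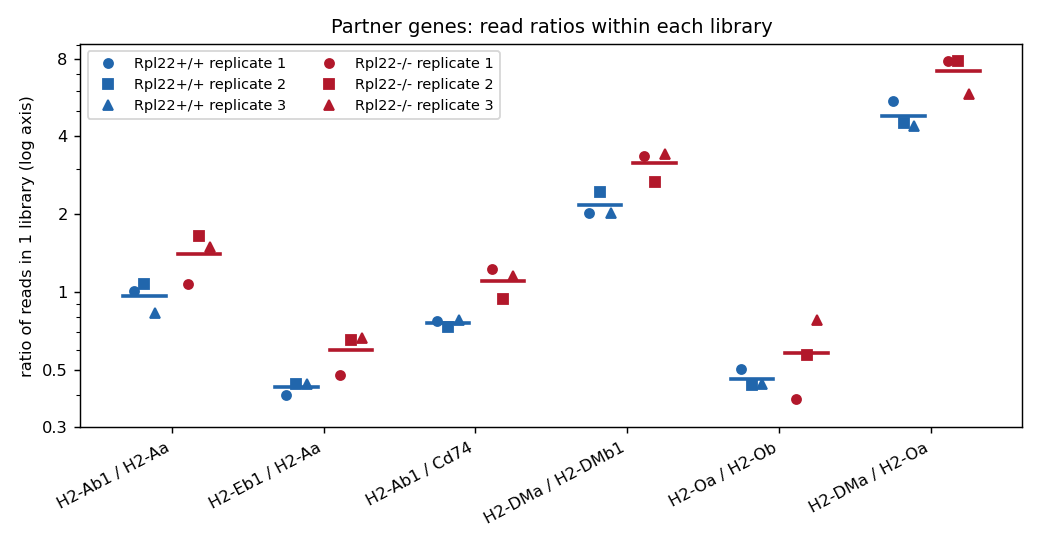
Ratio of the reads of pairs of class II genes in each library on a log axis, with Rpl22-/- in red, Rpl22+/+ in blue and a line at the mean of 3 libraries. H2-Oa over H2-Ob spreads from 0.386 to 0.781 in Rpl22-/- libraries and takes in the Rpl22+/+ values, whereas H2-Ab1 over Cd74 lies above 0.9 in every Rpl22-/- library and below 0.8 in every Rpl22+/+ library.

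Libraries of 1 genotype differed from each other in most of the genes. Relative to the mean of its genotype on a log2(CPM + 0.5) scale, Rpl22+/+ library 2 was at -0.41 for Cd74, -0.61 for H2-Aa, -0.46 for H2-Ab1 and -0.54 for H2-Eb1. The same library was at -0.02 for H2-DMa and 0.06 for Ciita, so its low values were not shared by the whole group. Rpl22-/- library 1 was at -0.54 for Cd74, -0.38 for H2-Ab1 and -0.32 for H2-Eb1, but at -0.02 for H2-Aa. The scarce H2-DMb2 had the widest deviation, 0.64 in Rpl22-/- library 2, and was at -0.59 in Rpl22-/- library 1. Ciita deviated the other way from Cd74 in Rpl22-/- library 1, at 0.24, and in Rpl22-/- library 2, at -0.36 where Cd74 was at 0.44.

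**Figure D3:**
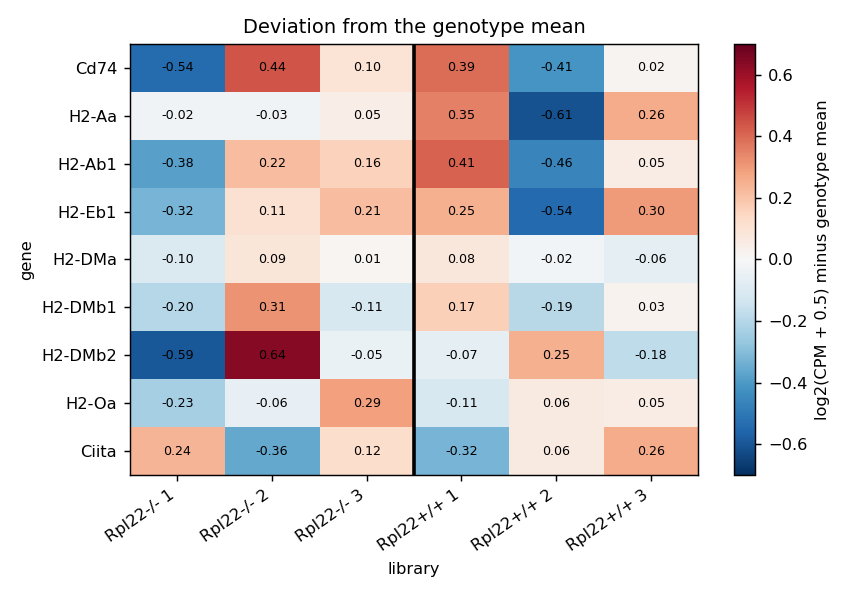
Deviation of each class II gene in each library from the mean of its genotype, in log2(CPM + 0.5) units, red above and blue below the mean. Cd74, H2-Aa, H2-Ab1 and H2-Eb1 are below the mean in Rpl22+/+ library 2, by 0.41 to 0.61, while H2-DMa stays within 0.10 of the mean in every library.

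The other genes of the class II pathway did not move as a group. Of 32 listed genes 26 were tested, and 1 rose and none fell, beside 3.28% and 2.29% of all tested genes. Fitted values were above 0 in 14 and below 0 in 12, and the median on the log2 scale was 0.012. The interferon gamma receptor and its kinases, which lead to Ciita, did not pass the test, with log2 fold changes of 0.14 for Ifngr1, -0.031 for Ifngr2, -0.036 for Jak1 and 0.014 for Jak2. Of the proteins at the promoter boxes, Rfx5 was at 0.016, Rfxap at -0.081 and Rfxank at 0.15 on the same scale. The NF-Y subunits Nfya and Nfyb were at -0.053 and -0.017, and Nfyc at 0.27 (SE 0.0892, adjusted p = 0.0818). Of the endosomal proteases, Ctsd had 0.27 (SE 0.0893, adjusted p = 0.0807) and Ctss, which cuts the invariant chain, 0.0098 (SE 0.242, adjusted p = 0.987). H2-Ob, the class II chain nearest to H2-Ab1 that was not a member, had 373, 267 and 274 reads against 274, 342 and 261 reads, a log2 fold change of -0.066 (SE 0.151, adjusted p = 0.839). The ligase March8, which removes class II from the surface, was at -0.25 (adjusted p = 0.164), and the costimulatory Cd86 at -0.38 (adjusted p = 0.374). These adjusted p-values are from edgeR over all 14004 genes, and a p that misses the threshold does not show that a gene was unaltered. Genes of this list other than Ctsd and Nfyc were chosen for naming after their values were seen.

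**Figure D4:**
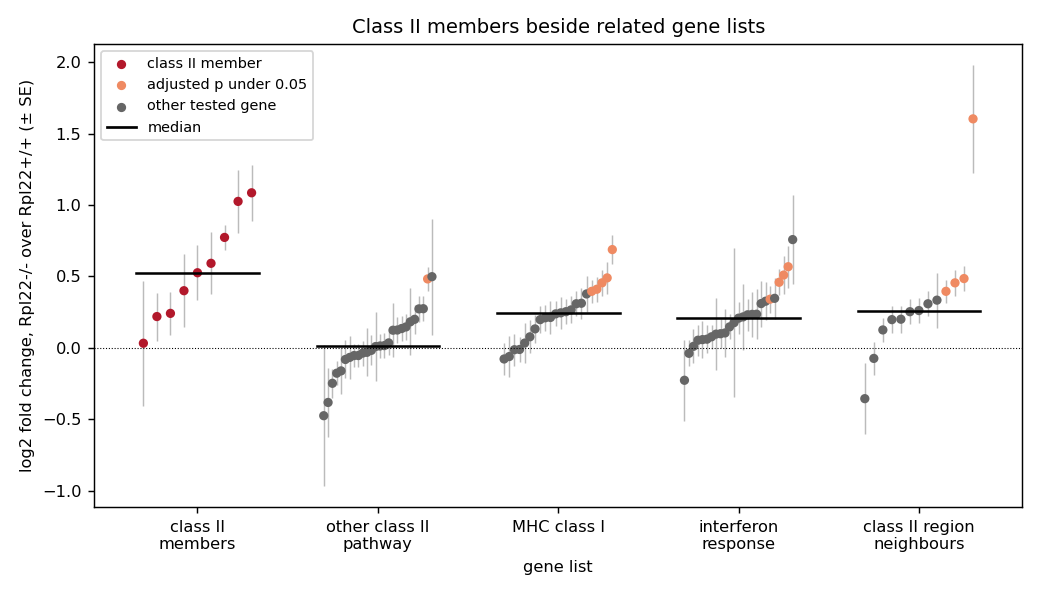
Log2 fold change with SE of every tested gene in the class II group and 4 related lists, Rpl22-/- over Rpl22+/+, with a bar at each list's median. The medians are 0.53 for the 9 class II genes, 0.012 for the other pathway genes, 0.24 for MHC class I, 0.21 for interferon response genes and 0.26 for neighbours in the class II region.

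MHC class I genes, which present peptides made in the cytosol, were higher in 18 of 22 tested and lower in 4, with 5 that rose, none that fell and a median of 0.24. B2m, the light chain of every class I molecule, rose from 1788, 1629 and 1512 CPM in Rpl22+/+ to 2479, 2742 and 2721 CPM in Rpl22-/- HSCs (log2 fold change 0.69, SE 0.101, edgeR adjusted p = 0.00237). The peptide transporter gene Tap1 rose by 0.46 (SE 0.0930, adjusted p = 0.0131) and the immunoproteasome gene Psmb9 by 0.40 (SE 0.0824, adjusted p = 0.0143). The count of 5 was 1 without Rpl22-/- library 3 or without Rpl22+/+ library 1, 2 without Rpl22+/+ library 2, 3 without Rpl22+/+ library 3 and 8 without Rpl22-/- library 1. Of the 26 interferon response genes 25 were tested, 23 were higher and 2 lower, 4 rose and none fell, with a median of 0.21. They included the tetherin gene Bst2 (0.46, SE 0.0909, adjusted p = 0.0115), the interferon regulator Irf7 (0.57, SE 0.146, adjusted p = 0.0341) and the GTPase gene Iigp1 (0.51, SE 0.134, adjusted p = 0.0371). With length and GC trends removed, Bst2 (adjusted p = 0.0866) and Irf7 (adjusted p = 0.0701) did not pass the edgeR test, and with library size alone Irf7 (adjusted p = 0.0552) and Iigp1 (adjusted p = 0.0663) did not, and the count was 1 under each. The count of 4 fell to 0 without Rpl22-/- library 3 or Rpl22+/+ library 1, to 1 without Rpl22+/+ library 2 and to 2 without Rpl22+/+ library 3. The background for the counts of 5 and 4 was 3.28% of tested genes higher. In either direction, calls over all genes numbered 127 without Rpl22-/- library 3 and 1720 without Rpl22-/- library 1, beside 780 with all libraries. Without Rpl22+/+ libraries 1, 2 and 3 they numbered 206, 259 and 241. They were 501 with length and GC trends removed and 850 with library size alone.

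Of the 9 genes, 7 lie on chromosome 17 within 224.335 kb, between H2-Oa and H2-Eb1. With 100 kb on each side (chr17:33992340-34416674) the region held 33 annotated genes of the count table, of which 21 were tested. The 23 neighbours that were neither members nor on the pathway list gave 13 tested genes, 11 higher and 2 lower, with a median of 0.26. Of these 4 rose and none fell, beside 3.28% and 2.29% of all tested genes. Tap1 and Psmb9 of the class I list were among the 4. H2-K1, Psmb8 and Tap2 were also on both lists, so the values of the 2 lists are not separate. Gm20496, an antisense transcript that overlaps Psmb8 and Tap2, was at 118 ± 10.8 and 84.3 ± 2.86 CPM (SD, n = 3 each; log2 fold change 0.49, SE 0.0887, edgeR adjusted p = 0.00780). Without knowledge of strand its reads cannot be told apart from those of its partners. Slc39a7, a zinc transporter gene named after its values were seen, had 31, 57 and 93 reads against 23, 20 and 12 reads (1.60, SE 0.376, adjusted p = 0.0237). The count of 4 was 1 without Rpl22-/- library 3, Rpl22+/+ library 1 or Rpl22+/+ library 2. Calls over all genes in these refits numbered 127, 206 and 259. H2-Ob, whose genotypes overlapped, lies between Tap2 and H2-Ab1.

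**Figure D5:**
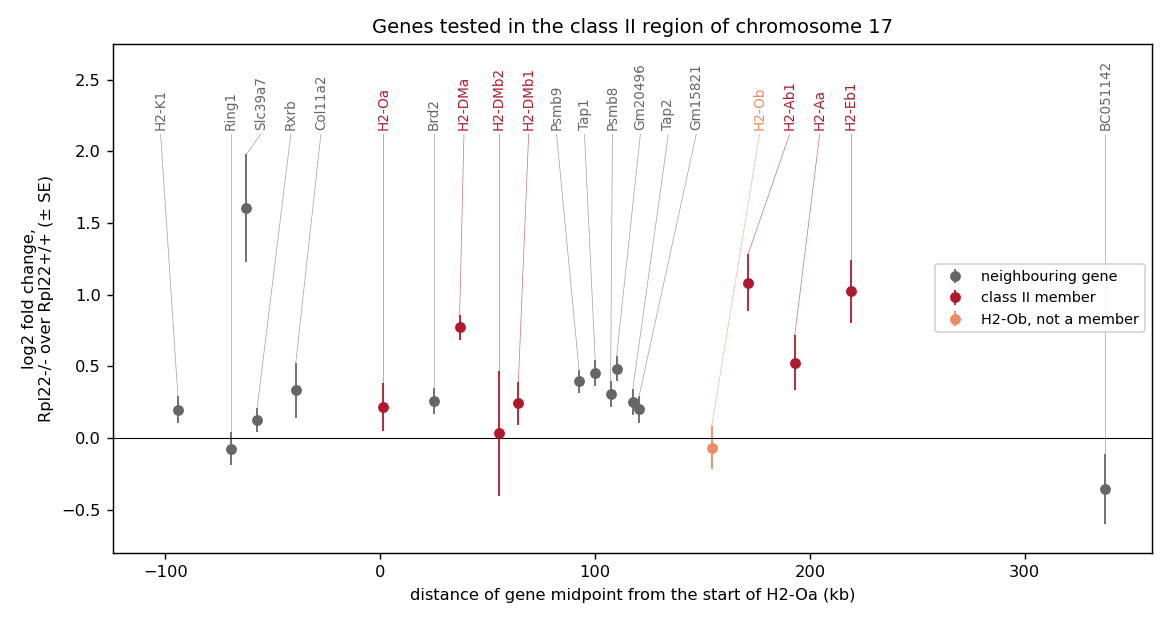
Log2 fold change with SE of each tested gene in the class II region of chromosome 17, Rpl22-/- over Rpl22+/+, against the distance of the gene's midpoint from the start of H2-Oa in kilobases. H2-Ab1 at 1.09 and H2-Eb1 at 1.03 stand above H2-Aa at 0.53, H2-Ob lies at -0.066, and the neighbours Psmb9, Tap1 and Gm20496 lie between 0.40 and 0.49.

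Markers of cell types known for class II ranged from undetected to well covered. Of the B cell list, Ms4a1 and Igll1 had 0 reads throughout, Cd79a had 0 to 5, Pax5 0 to 2 and Vpreb1 18 to 31 reads per library. The summed level of its 10 genes was 27.3 to 30.01 CPM in Rpl22-/- and 23.4 to 25.3 CPM in Rpl22+/+ libraries without overlap, and Cd79b alone gave 20.7 to 27.6 CPM of it. Of the 2 tested genes of this list none passed the edgeR test, and 1 had an unadjusted p under 0.05. In the dendritic cell list Batf3 and Siglech had 0 reads and Itgax, which encodes CD11c, 0 to 6 reads. Clec9a had 30 to 60 reads (log2 fold change -0.47, edgeR adjusted p = 0.326) and Zbtb46 18 to 42 reads (-0.79, edgeR adjusted p = 0.158). The sum of the 10 genes of this list went the other way from the class II genes, at 39.7 to 48.9 CPM in Rpl22-/- and 52.3 to 64.5 CPM in Rpl22+/+ libraries. Most of this sum came from Flt3, which is also expressed in progenitors, at 35.8 to 56.0 CPM over all libraries. All 3 tested genes were lower and none passed the test, although 2 had an unadjusted p under 0.05, among them the progenitor and dendritic cell receptor gene Flt3 (log2 fold change -0.36, SE 0.111, edgeR adjusted p = 0.0675). The macrophage gene Adgre1, listed under its older name Emr1, had 1 to 5 reads, and the 10 genes of the macrophage and monocyte list summed to 196 to 258 CPM against 204 to 220 CPM, most of it from the lysozyme gene Lyz2 at 178 to 231 CPM over all libraries. Its 5 tested genes were all higher and none passed the edgeR test. Lyz2 was at 0.12 on the log2 scale (SE 0.0980, adjusted p = 0.522), Csf1r at 0.081 and Cd68 at 0.32. Mrc1 was at 0.82 (SE 0.416, adjusted p = 0.259). Ly6c2, the 1 with an unadjusted p under 0.05, was at 2.13 (SE 0.745, adjusted p = 0.102). It had 20, 110 and 27 reads in Rpl22-/- and 2, 5 and 25 reads in Rpl22+/+ libraries. Ms4a1, Igll1, Cd79a, Pax5, Batf3, Siglech, Zbtb46, Cd68, Mrc1 and Ly6c2 were named after their values were seen. The T cell gene Cd3e had 0 reads, and the 8 genes of that list summed to 13.2 to 16.9 CPM against 13.2 to 16.2 CPM, with none of 2 tested past the threshold and 0 at an unadjusted p under 0.05. The share of all tested genes with an unadjusted p under 0.05 is not given here, so nothing is read from the counts at that cutoff.

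Lists of granulocyte, megakaryocyte and erythroid genes differed with genotype in part. The 8 neutrophil genes summed to 33.0, 139 and 41.6 CPM in Rpl22-/- and 25.0, 9.55 and 29.7 CPM in Rpl22+/+ libraries, and of 7 tested 6 were higher and 1, Camp, rose (log2 fold change 2.43, SE 0.599, edgeR adjusted p = 0.0291). Mpo had 1218 reads in Rpl22-/- library 2 against 178 and 225 in the other Rpl22-/- libraries and 19 to 197 in Rpl22+/+ libraries. Without that library the log2 fold changes were 0.98 for both H2-Ab1 and H2-Eb1, 0.73 for H2-DMa and 0.35 for Cd74. They were 0.57 for Ciita, 0.54 for H2-Aa, 0.26 for H2-Oa, 0.067 for H2-DMb1 and -0.48 for H2-DMb2. Of 7 tested megakaryocyte genes all 7 were higher in this fit and 4 rose, among them Itga2b, which encodes CD41 (0.51, SE 0.101, adjusted p = 0.0115), with a sum of 1468 to 1720 CPM against 1192 to 1390 CPM. The erythroid list, of whose 8 symbols 6 were in the table, summed to 8.66 to 13.4 CPM against 12.6 to 23.5 CPM, and 1 of its 2 tested genes, Car1, fell by 1.37 on the log2 scale (SE 0.326, adjusted p = 0.0246). The 10 HSC genes summed to 2164 to 2423 CPM against 2352 to 2412 CPM, overlapping. The background for the counts of these lists was 3.28% of all tested genes higher and 2.29% lower. The part of these other cells and lineages in the class II values was not tested.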

How the data were processed

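Polyadenylated RNA of 3 Rpl22-/- and 3 Rpl22+/+ sorted HSC libraries was sequenced with TruSeq RNA kits. Per the labels, the authors deposited raw read counts per gene, made with TopHat2 2.1.1 and HTSeq on mm10. The annotation and strand setting of the counting are not given in the sources used here. Rows naming no gene (58.6 to 60.9% of counts per library) were left out. Genes kept by filterByExpr (minimum count 10, 14004 genes) were scaled by TMM factors and compared with the quasi-likelihood test of edgeR 4.0.16 in R 4.3.3, without covariates, with Benjamini-Hochberg adjustment over all tested genes and a threshold of 0.05. CPM used TMM-scaled library sizes. The SE of an edgeR log2 fold change was its absolute value divided by the square root of the F statistic of the test. The fit was tested on simulated counts. Positions were taken from GENCODE M21 (GRCm38), by symbol for 29042 genes and by an older symbol for 1880. Same-numbered replicates did not deviate together (correlations -0.10, 0.055 and 0.045). The genes described and all lists were chosen with earlier results of these data known. Named genes were the 9 members, pathway genes past the threshold or up to the 3 smallest p-values, the 3 smallest p-values of the class I, interferon and neighbour lists, the 2 highest of each marker list, Itgax, Adgre1, Cd3e, Procr, Slamf1 and Rpl22, and some genes that this rule names are not reported here. The 16 alternatives covered other scalings (including DESeq2 1.42.0 and limma 3.58.1 voom), filters, a replicate block, removal of length and GC trends, and leaving out each library.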

Additional observations from a re-analysis of the deposited data

How the results depend on the processing

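With 3 libraries per genotype, single libraries decided several counts. The number of class II genes called was 3, with 5 when no filter on low counts was used and 1 to 4 when a library was left out. Their median log2 fold change of 0.53 ran from 0.40 to 0.71. H2-DMa was called under all 16 alternatives, H2-Ab1 under 15 and H2-Eb1 under 14. These are refits of the libraries in which the genes were chosen, so nothing is read from how often they were called. Pathway genes called numbered 2 with DESeq2 and 2 with no filter, and 1 to 3 with a library left out. Class I genes called numbered 8 with DESeq2 and 8 with no filter, and 1 to 8 with a library left out. Interferon genes called numbered 1 with library size alone, 1 with length and GC trends removed and 1 with those trends and a replicate block, and 0 to 4 with a library left out. Region neighbours called numbered 2 with trends and block, and 1 to 6 with a library left out. Marker genes called numbered 14 of 64 tested with no filter, beside 7 of 38 in the main fit, and 1 to 10 with a library left out. Over all genes, calls numbered 780 of 14004 in the main fit, 1057 with DESeq2, 850 with library size alone and 1422 of 20635 with no filter. They numbered 501 with trends removed and 532 with trends and block. Without Rpl22-/- libraries 1, 2 and 3 they numbered 1720, 370 and 127, and without Rpl22+/+ libraries 1, 2 and 3 they numbered 206, 259 and 241. The count of each list is to be read beside these. The replicate block gave 904 genes and 3 class II genes; the shared numbers were not shown to pair the samples, and not every library correlated best with its own number.

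Signs turned for genes near 0. H2-DMb2 was at -0.015 with library size alone, -0.11 with voom, -0.025 with the replicate block, -0.093 with trends removed and -0.15 with trends and block. With 1 library left out, H2-DMb2 ran from -0.48 (without Rpl22-/- library 2) to 0.36, Vpreb1 from -0.38 to 0.060, Csf1r from -0.13 to 0.25, S100a9 from -0.018 to 2.28, Klf1 from -0.27 to 0.11 and Kit from -0.039 to 0.051. Kit was at -0.041 with library size alone. The cause was not tested.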
